A study of Mus musculus with 6 samples.

Results

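Cytosolic ribosomal protein genes encode the proteins of the large and small subunits of the ribosome that translates cytoplasmic messages. They were taken from the deposited gene table by annotation and name: protein-coding genes whose symbol begins with Rpl or Rps and a digit, with Rplp and a digit, or is Rpsa, without the Rps6k kinases and without names holding -ps. The rule gave 87 genes of the 55487 in the table, and it used no measured value. Of these, 83 had at least 60 counts summed over the 6 libraries and all 83 passed the filter on low counts, with sums from 148 to 57862. They comprised 43 large subunit genes, 31 small subunit genes, 3 genes of the ribosomal stalk and 5 paralogues or retrocopies (Rpl22l1, Rpl36al, Rpl7l1, Rps27l and Rps27rt). The last, Rps19bp1, matches the name rule but encodes a protein named for binding Rps19 and is not a ribosomal protein, so counts over the 83 members include 1 gene that is not.

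RNA came from whole aorta, in 3 libraries of mice lacking Ogt specifically in smooth muscle, titled SM22-∆Ogt and called knockout here, and from 3 libraries of mice with the floxed (LoxP) Ogt gene, called control. The comparison asks which genes depend on Ogt, whose product O-GlcNAc transferase adds single N-acetylglucosamine residues to nuclear and cytosolic proteins. SM22 is a name of transgelin, whose promoter is widely used to drive Cre recombinase in smooth muscle. The labels do not give the driver in full, nor the age, sex and strain of the mice or how many aortas made 1 library, so p-values measure the spread between these libraries. Ogt itself had 93.3, 73.5 and 70.9 CPM (counts scaled to library size) in knockout libraries, against 177, 183 and 150 CPM in control libraries. It fell, with a log2 fold change of -1.10 ± 0.15 (SE, adjusted p = 0.0214 by the quasi-likelihood test of edgeR). Other cells of the aorta keep Ogt by design.

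Each ribosome carries a single copy of nearly every ribosomal protein, so cells make these proteins in matched amounts. Their messages are among the most abundant in most cells and are short. Most begin with a run of pyrimidines after a cytosine, the 5' TOP element, through which growth signals passing mTOR and Larp1 set their translation. The mouse genome also holds many retrotransposed copies of these genes, so a short read from 1 message can match several places. How the authors' counting treated such reads is not given in the sources used here.

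Where reads were counted was therefore examined first. A near-identical copy was defined as a gene of the GENCODE M21 annotation whose transcript matched a member's coding sequence with at least 95% identity over at least 80% of its length, with the match covering at least 50% of the copy. For each member only the longest coding sequence was searched, so copies of a shorter form could be missed. There were 557 copies by this definition, of which 525 had counts and 376 carried predicted-gene (Gm) names. Rps19 had 0 of them, though the pseudogenes Rps19-ps3 and Rps19-ps7 had 386 and 333 counts. Of the 83 tested genes, 74 had at least 1 copy. In 53 of them the gene itself held under 50% of the counts of the gene and its copies together, and in 19 it held under 10%. A total of 79 copies had more counts than the gene they resemble.

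**Figure D1:**
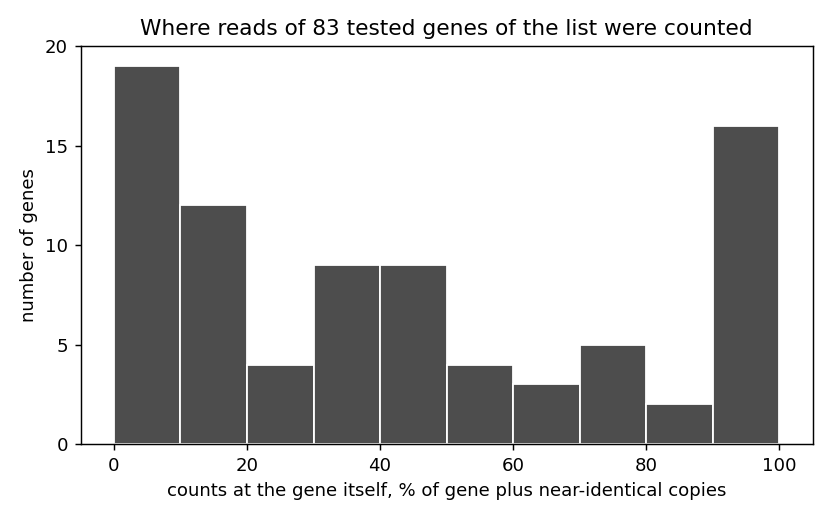
Histogram of the share of counts found at the gene itself, as a percent of the counts of the gene plus its near-identical copies over all 6 libraries (x axis, bins of 10 percentage points), against the number of genes (y axis). The tested genes pile up at both ends: 19 of 83 lie under 10% and 16 at 90% or above. The 16 include Rps27 and Rps27rt, which are identical in coding sequence but, both being members, were not counted as copies of each other.

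The lowest shares belonged to genes of both subunits. Rps29 and Rps23, both of the small subunit, held 1.07% and 1.26% of the counts of their families, and the large subunit genes Rpl17 and Rpl28 held 1.79% and 2.10%. Rpl28 had 547 counts over the 6 libraries, while its copy Rpl28-ps1, identical over the coding sequence, had 22431. Rps6, the small subunit protein phosphorylated by S6 kinases, had 5313 counts, and its identical copy Rps6-ps4 had 21825. Rpl10, which joins the large subunit late in its assembly, had 2098 counts against 20040 at Rpl10-ps5 and 18239 at Rpl10-ps1. Level values of these genes are thus those of a locus and not of a message.

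The clearest pair lies within the list. Rps27 encodes a small subunit protein with a zinc finger, and Rps27rt is a retrocopy of it on another chromosome. Both have the same 252-base coding sequence in GENCODE M21, shown once because reads within it cannot be told apart:
Rps27 and Rps27rt: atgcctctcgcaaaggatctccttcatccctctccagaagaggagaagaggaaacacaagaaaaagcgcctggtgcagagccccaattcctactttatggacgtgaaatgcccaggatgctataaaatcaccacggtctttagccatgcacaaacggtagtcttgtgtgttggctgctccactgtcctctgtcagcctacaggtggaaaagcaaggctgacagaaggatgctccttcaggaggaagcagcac
Rps27 lies on chromosome 3 (GRCm38, 90212522 to 90213651) and received 311 counts in all 6 libraries. Rps27rt lies on chromosome 9 (114982366 to 114982739) and received 10794 counts. Rps27 had 4.51, 4.29 and 4.58 CPM in knockout libraries, against 2.82, 5.56 and 3.27 CPM in control libraries. Rps27rt had 136, 143 and 140 CPM in knockout libraries, against 142, 74.2 and 141 CPM in control libraries. The groups overlap at both loci, and control replicate 2 is the highest library at Rps27 and the lowest at Rps27rt. Log2 fold changes were 0.30 at Rps27 and 0.22 at Rps27rt, and 0.56 and -0.02 without that library, with neither called. Rps27rt also lies within Osbpl10, on the opposite strand.

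The share of all counts found at the 87 genes was 0.994%, 0.984% and 0.973% in knockout libraries, against 1.06%, 0.611% and 1.10% in control libraries. The mean was 0.984% ± 0.010 in knockout libraries and 0.922% ± 0.270 in control libraries (SD, n = 3 each). The knockout libraries lie close together and between control replicate 2 below and control replicates 1 and 3 above, so the groups overlap. The knockout minus control difference was 0.061 percentage points with all libraries and -0.094 without control replicate 2. With the copies added, the shares were 2.32%, 2.34% and 2.34% in knockout libraries, against 2.58%, 1.40% and 2.63% in control libraries, in the same order. Of counts at nuclear protein-coding genes alone, the 87 genes took 1.18% to 1.25% in knockout libraries and 0.853% to 1.32% in control libraries. Messages of mitochondrial DNA took 11.5% to 14.6% of counts in knockout libraries and 5.52% to 10.7% in control libraries, and the part this plays in the shares was not tested.

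**Figure D2:**
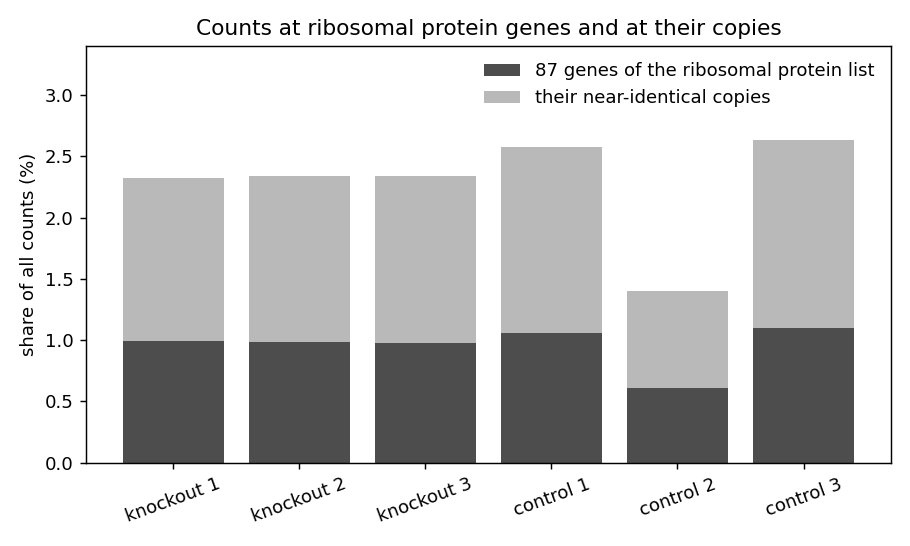
Share of each library's counts (y axis, %) at the 87 genes of the list (dark) and at their near-identical copies (light), for 3 knockout and 3 control libraries (x axis). The knockout bars end at 2.32% to 2.34%, control replicates 1 and 3 at 2.58% and 2.63%, and control replicate 2 at 1.40%.

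Control replicate 2 stood apart before any test. It had 3038782 counts, against 11845644 to 18218385 in the other 5 libraries, and its member share of 0.611% had a Wilson 95% interval of 0.602% to 0.620%, which covers counting error only. Ribosomal RNA of mitochondria made up 10.2% of it, where the other libraries had 0.491% to 0.823%. The nuclear RNA Malat1 made up 1.63%, where the others had at most 0.305%, and its protein-coding share was 77.2%, where the others had at least 93.2%. On the CPM scale it lay below the other 5 libraries in 67 of 83 tested members, a position it held in 32.6% of all 16139 tested genes. The median ratio of a member's CPM to the mean of control replicates 1 and 3 was 0.694 in that library and 0.962, 0.991 and 0.977 in knockout replicates 1 to 3. It was above both other controls in only 6 members, Rpl9, Rpl10, Rpl13, Rpl37a, Rps12 and Rps27. Fold changes that move with it are therefore also given without it. Whole-aorta RNA cannot tell fewer cells of a type from less RNA per cell.

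**Figure D3:**
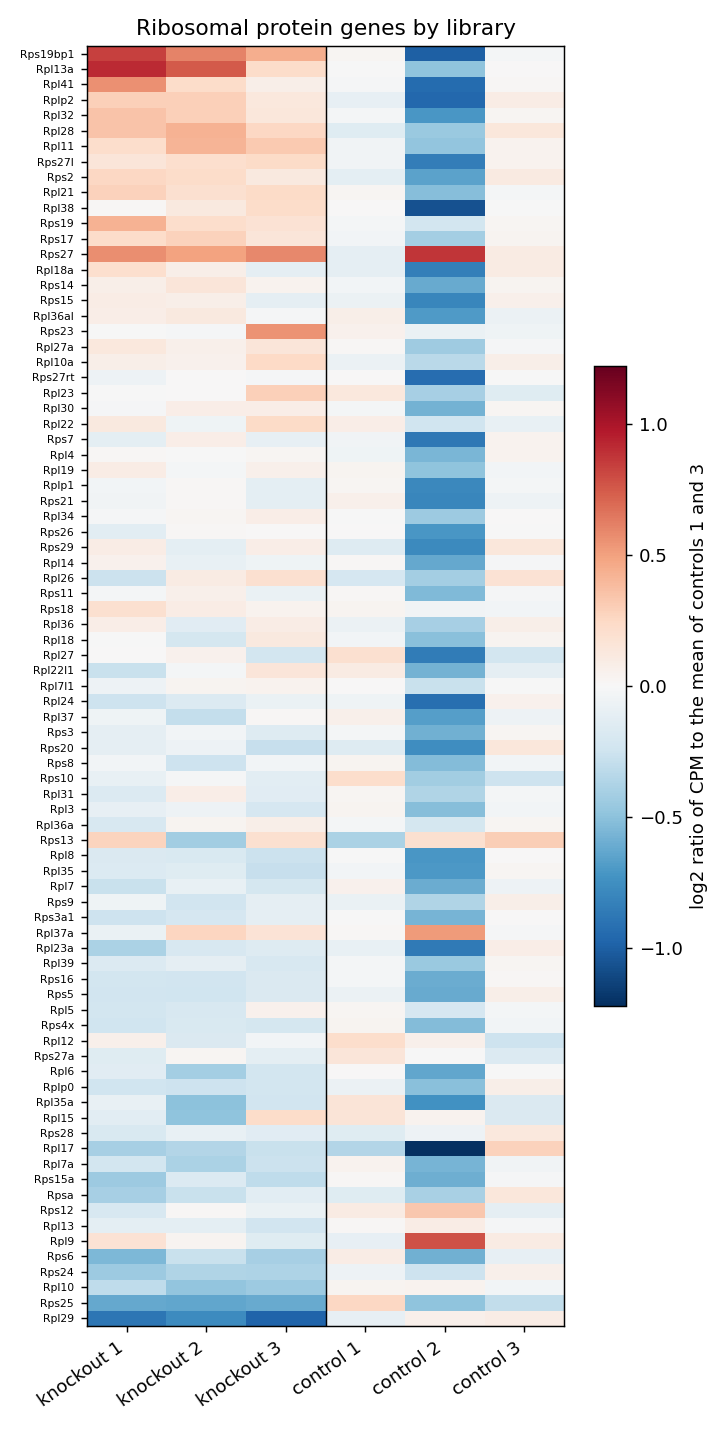
Log2 ratio of each tested gene's CPM to the mean of control replicates 1 and 3 (colour), for 83 genes (rows, ordered by log2 fold change of knockout over control) in 3 knockout and 3 control libraries (columns). Control replicate 2 is blue, that is lower, in most rows, and its median ratio of 0.694 contrasts with 0.962 to 0.991 in the knockout libraries. Rpl29, in the bottom row, is blue in the knockout columns and pale in all control columns.

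Across the whole table edgeR called 557 of 16139 genes at an adjusted p under 0.05, or 3.45%, with 1.90% higher and 1.56% lower in knockout aortas. Among the 83 members it called 0 higher and 1 lower, Rpl29. A total of 10 members had an unadjusted p under 0.05, against 22.7% of all tested genes, so both counts lay below the background share. DESeq2 called 3 members, Rpl13a and Rps19bp1 higher and Rpl29 lower, where it called 9.30% of all genes. The median log2 fold change of members was 0.08, with 51 above zero and 32 below, beside -0.01 over all tested genes. Without control replicate 2 the median was -0.03, with 35 above zero and 48 below, beside 0.01 over all genes. Rpl29 was then again the only member called, where 5.51% of all genes were, and 17 members had an unadjusted p under 0.05, against 25.9% of all genes. In all, 22 members changed sign without that library, 19 of them to a negative value. In edgeR on the sums of each gene and its copies, 0 members were called with all libraries, where 3.55% of all genes were, and the median was 0.12. At an unadjusted p under 0.05 these were 4 members, where 23.0% of all genes passed. Without control replicate 2 the sums gave 0 members called, where 5.57% of all genes were, 19 at an unadjusted p under 0.05, where 26.0% of all genes passed, and a median of -0.08. With limma-voom, Rpl29 was again the only member called, where 4.73% of all genes were.

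**Figure D4:**
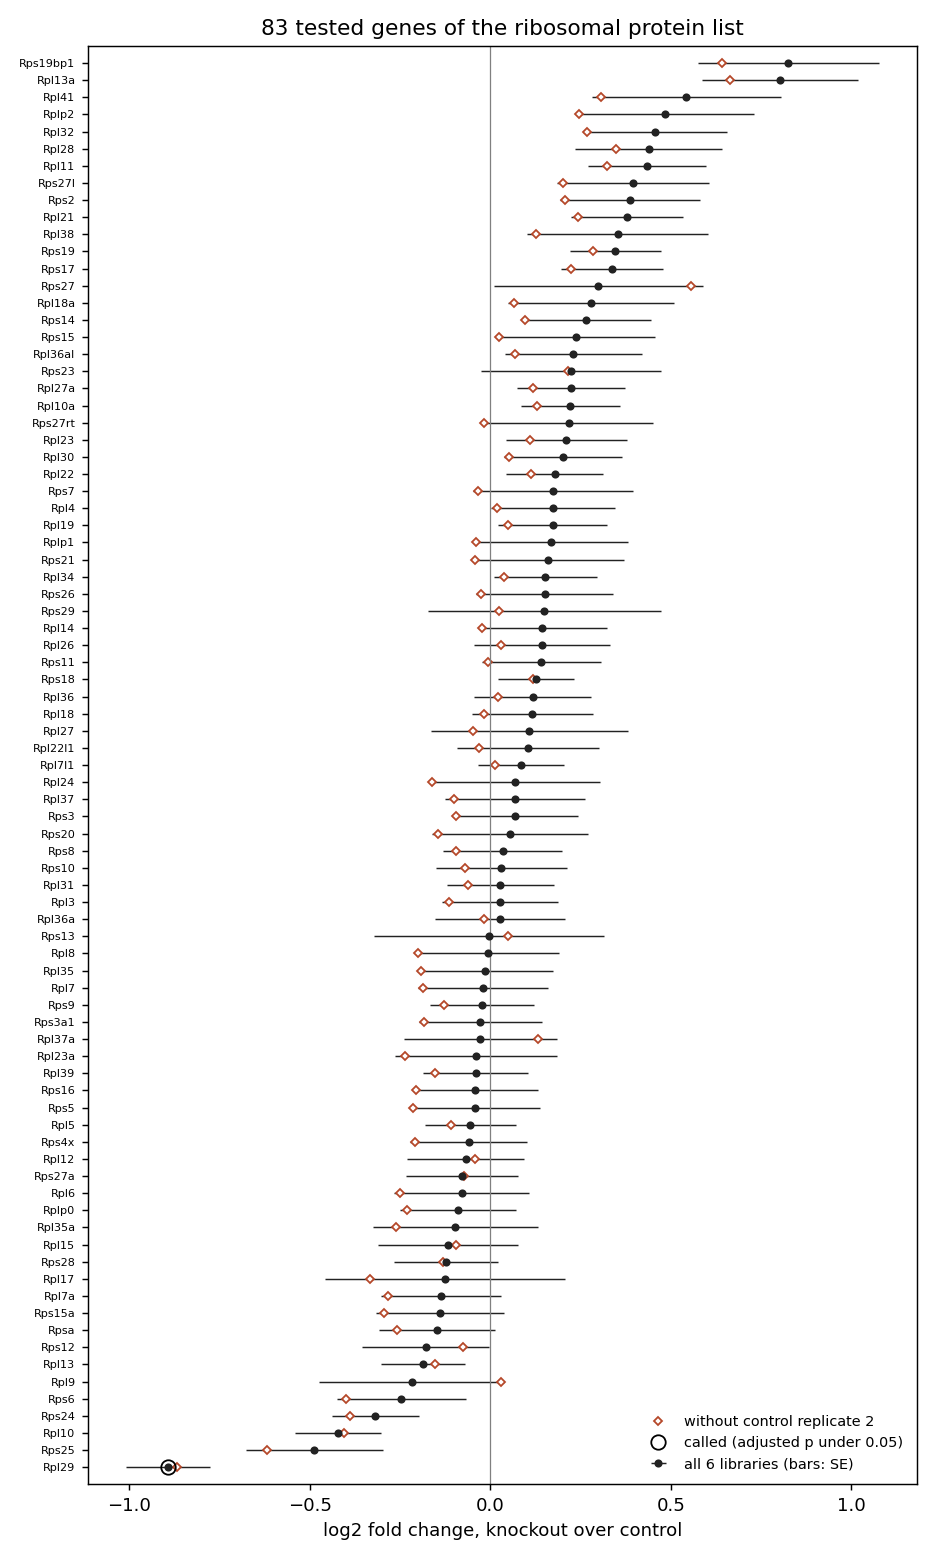
Log2 fold change of knockout over control (x axis) for the 83 tested members (y axis), with all 6 libraries (black points, bars are SE) and without control replicate 2 (open diamonds), and with a ring around the 1 gene called. Rpl29 stands lowest at -0.89, Rps19bp1 and Rpl13a stand highest at 0.83 and 0.80, and most diamonds lie to the left of their black point.

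By structure, the 43 large subunit genes had a median log2 fold change of 0.07 (1 called, 5 at an unadjusted p under 0.05 in edgeR). The 31 small subunit genes had a median of 0.03 (0 called, 4 at an unadjusted p under 0.05). Of all tested genes, 3.45% were called and 22.7% had an unadjusted p under 0.05. Without control replicate 2 these medians were -0.02 and -0.07. The 5 paralogues and retrocopies had a median of 0.22 with all libraries and 0.01 without that library, and 0 were called in either. Both subunits had medians within 0.1 of that of all genes in both settings.

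Rpl29, a large subunit protein with a lysine-rich tail that is also known for binding heparin, was the member with the lowest fold change. It lies on chromosome 9 (GRCm38, 106429454 to 106431568). Its counts were 620, 974 and 906 in knockout libraries, against 1325, 274 and 1428 in control libraries. Scaled to library size these were 52.8, 57.3 and 49.4 CPM in knockout libraries, against 91.1, 102 and 104 CPM in control libraries. The groups do not overlap, and control replicate 2 lies with the other controls. The log2 fold change was -0.89 ± 0.12 (adjusted p = 0.0198), and -0.87 without control replicate 2 (adjusted p = 0.0197). The call was lost without knockout replicate 1 (adjusted p = 0.126), 2 (0.112) or 3 (0.0694), or control replicate 1 (0.0806). In the 6 fits that left out a library the log2 fold change ran from -0.96 to -0.84.

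Rpl29 held 37.3% of the counts of its family of 24 copies with counts. The 3 copies with the most counts differ from its 480 coding bases at 4 bases (Gm10709), 3 bases (Gm6344) and 3 bases (Gm13841). Coding positions 398 to 457 hold several of these, shown because they could tell a read of Rpl29 from a read of these 3 copies. The other copies were not compared at these positions. Sequence outside the coding bases was not compared. Capitals mark positions where a copy differs from Rpl29:
Rpl29: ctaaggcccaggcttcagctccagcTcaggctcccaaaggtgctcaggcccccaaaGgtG
Gm10709: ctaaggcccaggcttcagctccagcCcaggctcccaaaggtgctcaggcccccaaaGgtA
Gm6344: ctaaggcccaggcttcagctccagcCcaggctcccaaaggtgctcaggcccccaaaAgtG
Gm13841: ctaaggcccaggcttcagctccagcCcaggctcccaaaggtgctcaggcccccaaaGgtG
Gm10709 had 46.4, 40.3 and 44.3 CPM in knockout libraries, against 38.2, 24.8 and 43.2 CPM in control libraries. Gm6344 had 39.6, 42.2 and 35.5 CPM in knockout libraries, against 30.1, 20.4 and 32.6 CPM in control libraries, with a log2 fold change of 0.47 that was not called (adjusted p = 0.180). Neither copy was lower in knockout libraries. Summed over the gene and its copies, the family had 181, 180 and 171 CPM in knockout libraries, against 205, 178 and 220 CPM in control libraries. The groups overlap at the sum, whose log2 fold change was -0.18 ± 0.12 (adjusted p = 0.413), and -0.25 without control replicate 2 (adjusted p = 0.134).

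**Figure D5:**
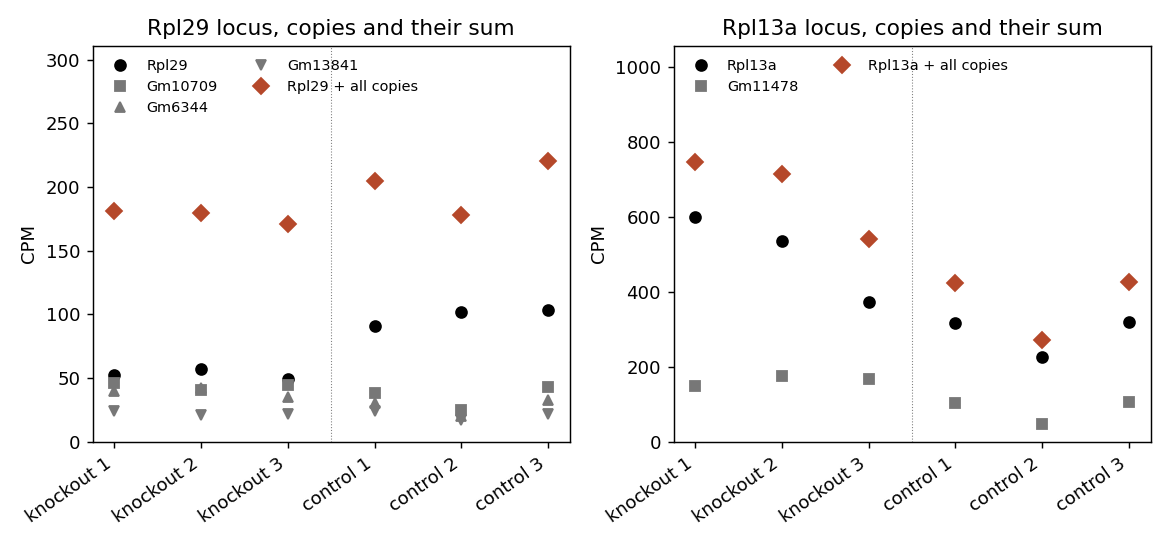
CPM (y axes) in each library (x axes, 3 knockout then 3 control) at Rpl29 and 3 of its copies (left panel) and at Rpl13a and its copy Gm11478 (right panel), with the sum of the gene and all of its copies as diamonds. At the Rpl29 locus the knockout points lie at 49.4 to 57.3 CPM under control points at 91.1 to 104 CPM, while its copies overlap or lie higher in knockout libraries. At Rpl13a the gene, the copy and the sum all lie higher in knockout libraries.

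The other end of the list was headed by Rps19bp1 and Rpl13a, neither of them called by edgeR. Rpl13a is a large subunit protein also known, in human myeloid cells, for leaving the ribosome to silence inflammatory messages. It lies on chromosome 7 (GRCm38, 45125558 to 45128761). It had 598, 535 and 372 CPM in knockout libraries, against 317, 226 and 319 CPM in control libraries. The groups do not overlap, and the knockout libraries differ among themselves more than control replicates 1 and 3 do. The log2 fold change was 0.80 ± 0.22 (adjusted p = 0.0847), and 0.66 without control replicate 2 (adjusted p = 0.112). DESeq2 gave an adjusted p of 0.00961. The gene held 74.8% of its family's counts, and its copy Gm11478 had 147, 176 and 167 CPM in knockout libraries, against 105, 47.5 and 106 CPM in control libraries. The family sum had a log2 fold change of 0.83 ± 0.21 (adjusted p = 0.0756). Gm11478 was not called with all libraries (0.91, adjusted p = 0.118) and was called higher without control replicate 2 (0.64, adjusted p = 0.0317). Of the 315 copies tested, edgeR called 0 with all libraries, beside 3.45% of all genes, with 12 at an unadjusted p under 0.05, beside 22.7%. In the fit without control replicate 2 it called 1 higher and 1 lower of 318, beside 5.51% of all genes, with 43 at an unadjusted p under 0.05, beside 25.9%.

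Rps19bp1, known as an activator of the deacetylase Sirt1, had 17.2, 14.7 and 13.1 CPM in knockout libraries, against 9.83, 4.82 and 9.45 CPM in control libraries. Its groups do not overlap, and its log2 fold change was 0.83 ± 0.25 (adjusted p = 0.111), and 0.64 without control replicate 2 (adjusted p = 0.0719). Next came Rpl41, which encodes the smallest ribosomal protein, a peptide at the face between the subunits. Rpl41 had 239, 189 and 170 CPM in knockout libraries, against 160, 84.2 and 163 CPM in control libraries. Its log2 fold change was 0.54 ± 0.26, and 0.31 without control replicate 2.

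The remaining members of the highest 10 were Rplp2, Rpl32, Rpl28, Rpl11, Rps27l, Rps2 and Rpl21, with log2 fold changes of 0.38 to 0.48. In each the lowest knockout library lay above the highest control library, and control replicate 2 was the lowest library of all. Without that library their log2 fold changes were 0.20 to 0.35, and none of the 7 was called in either setting. Rpl11 binds Mdm2 together with Rpl5 and 5S ribosomal RNA when ribosome assembly fails. Rpl11 had 22.7, 26.2 and 24.4 CPM in knockout libraries, against 19.0, 14.1 and 20.2 CPM in control libraries (adjusted p = 0.172). Its partner Rpl5 had 83.7, 85.3 and 101 CPM in knockout libraries, against 99.1, 84.9 and 96.0 CPM in control libraries (log2 fold change -0.06 ± 0.13, and -0.11 without control replicate 2). The groups do not overlap at Rpl11 and overlap at Rpl5. The Rpl11 locus held 8.95% of its family's counts and the family sum had a log2 fold change of 0.30 (adjusted p = 0.486), and 0.07 without control replicate 2 (adjusted p = 0.705).

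At Rpl28 both the locus and its identical copy were higher in every knockout library than in any control library. Rpl28 had 7.74, 8.18 and 7.25 CPM in knockout libraries, against 5.50, 4.45 and 6.69 CPM in control libraries. Rpl28-ps1 had 356, 318 and 292 CPM in knockout libraries, against 237, 159 and 262 CPM in control libraries, with a log2 fold change of 0.55 (adjusted p = 0.155). Neither was called. Rpl28 also overlaps Ube2s on the other strand, and reads of the overlap cannot be told apart without strand information.

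At the low end, after Rpl29, stood Rps25, Rpl10, Rps24, Rps6, Rpl9, Rpl13, Rps12, Rpsa and Rps15a, from -0.49 to -0.14. Rps25, a small subunit protein that several viral messages need for internal initiation, had 55.8, 55.3 and 56.3 CPM in knockout libraries, against 102, 61.2 and 69.7 CPM in control libraries. The knockout libraries lie below all controls and within 1 CPM of each other, while the controls are spread. Its log2 fold change was -0.49 ± 0.19 (adjusted p = 0.184), and -0.62 without control replicate 2 (adjusted p = 0.0730). Rps25 overlaps Ccdc84 and Trappc4 on the other strand.

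Rpl10 had 25.6, 22.7 and 23.2 CPM in knockout libraries, against 32.4, 32.6 and 30.9 CPM in control libraries. The groups do not overlap, and control replicate 2 lies with the other controls, as at Rpl29. The log2 fold change was -0.42 ± 0.12 (adjusted p = 0.0938), and -0.40 without control replicate 2 (adjusted p = 0.0787). Its locus held 4.92% of the counts of its family, whose sum had a log2 fold change of -0.21 (adjusted p = 0.515), and -0.37 without control replicate 2 (adjusted p = 0.0643). Rps24, mutated in some human families with Diamond-Blackfan anaemia, had 113, 119 and 118 CPM in knockout libraries, against 147, 129 and 160 CPM in control libraries. Its groups do not overlap, and its log2 fold change of -0.32 ± 0.12 had an adjusted p of 0.174, and 0.0568 without control replicate 2. Rps6 had 55.1, 66.5 and 60.5 CPM in knockout libraries, against 85.7, 53.4 and 75.2 CPM in control libraries. Only control replicate 2 keeps the groups of Rps6 from standing apart, and without it the log2 fold change was -0.40 (adjusted p = 0.0903), against -0.25 with all libraries.

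Rps19 and Rps14, small subunit genes whose loss causes human anaemias, were both higher in every knockout library than in any control library. Rps19 had 135, 117 and 114 CPM in knockout libraries, against 98.9, 86.0 and 102 CPM in control libraries, with a log2 fold change of 0.35 ± 0.13 (adjusted p = 0.163). Rps14 had 272, 287 and 267 CPM in knockout libraries, against 253, 168 and 264 CPM in control libraries, with 0.27 ± 0.18 (adjusted p = 0.416). On leaving out control replicate 2 these were 0.28 for Rps19 and 0.10 for Rps14, and neither was called in either setting. Rps18, often used as a reference gene in quantitative PCR, had 67.6, 62.9 and 60.6 CPM in knockout libraries, against 60.5, 57.1 and 57.4 CPM in control libraries. The knockout values just clear the control values, with a log2 fold change of 0.13 ± 0.11 (adjusted p = 0.514).

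In total, the groups did not overlap in 21 of 83 members, 16 higher and 5 lower in knockout libraries, where they did not overlap in 31.8% of all tested genes. Against control replicates 1 and 3 alone, 39 members did not overlap, 17 higher and 22 lower, where 45.3% of all genes did not. The members that lay above all controls and those that lay below were thus mixed in both settings.

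The stalk is the arm of the large subunit that recruits the GTPases of translation, and Rplp0 forms its base while Rplp1 and Rplp2 form its flexible arms. Rplp0 had 351, 348 and 355 CPM in knockout libraries, against 394, 291 and 434 CPM in control libraries (log2 fold change -0.09 ± 0.16). Rplp1 had 433, 449 and 411 CPM in knockout libraries, against 453, 258 and 436 CPM in control libraries (0.17 ± 0.21). Rplp2 had 186, 186 and 166 CPM in knockout libraries, against 142, 78.2 and 162 CPM in control libraries (0.48 ± 0.25). The groups overlap at Rplp0 and Rplp1 and stand just apart at Rplp2, and none of the 3 was called. Without control replicate 2 the log2 fold changes were -0.23, -0.04 and 0.24.

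The paralogues that can replace a ribosomal protein in some tissues were compared with their partners. Rpl22l1, which takes the place of Rpl22 in mice that lack it, had 23.3, 27.8 and 31.2 CPM in knockout libraries, against 30.2, 18.9 and 26.2 CPM in control libraries. Rpl22 had 103, 91.5 and 112 CPM in knockout libraries, against 100, 80.1 and 89.2 CPM in control libraries, and the groups overlap at both. Log2 fold changes were 0.10 for Rpl22l1 and 0.18 for Rpl22, and -0.03 and 0.11 without control replicate 2. Rps27l, a paralogue of Rps27 known as a p53 target, had 39.8, 41.6 and 42.4 CPM in knockout libraries, against 34.9, 20.02 and 37.1 CPM in control libraries. Its groups do not overlap, and its log2 fold change of 0.39 ± 0.21 was not called (adjusted p = 0.312). Rpl36al and Rpl7l1 had log2 fold changes of 0.23 ± 0.19 and 0.08 ± 0.12, and the groups overlap at both. In the fit without control replicate 2 these were 0.07 and 0.01, and that of Rps27l was 0.20.

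Of the remaining genes with a known side role, Rpsa, the small subunit protein also described as a laminin receptor, had 229, 251 and 277 CPM in knockout libraries, against 273, 231 and 333 CPM in control libraries. Its groups overlap (log2 fold change -0.15 ± 0.16, and -0.26 without control replicate 2). The 4 members on the X chromosome, where Ogt also lies, were Rpl10, Rpl36a, Rpl39 and Rps4x. Rps4x, a small subunit protein, had 309, 323 and 316 CPM in knockout libraries, against 375, 254 and 358 CPM in control libraries. Rpl39, a short protein in the wall of the exit tunnel, had 33.8, 35.1 and 33.2 CPM in knockout libraries, against 37.3, 27.8 and 38.7 CPM in control libraries. Rpl36a had 6.38, 7.47 and 7.69 CPM in knockout libraries, against 7.22, 6.30 and 7.41 CPM in control libraries. Of these 4, the groups overlap in all but Rpl10, and log2 fold changes of the other 3 were -0.06 to 0.03. On leaving out control replicate 2 they were -0.02 for Rpl36a, -0.15 for Rpl39 and -0.21 for Rps4x. In the annotation, 30 members overlap 59 snoRNA genes, taken on either strand, and 15 overlap another protein-coding gene with at least 60 counts.

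The 4 members under 60 counts were paralogues or retrocopies known from other tissues. Rpl3l, the form of Rpl3 made in heart and skeletal muscle, had 2, 9 and 0 counts in knockout libraries and 0 in every control library, so its values rest on 11 reads. Rpl3 itself had 128, 132 and 119 CPM in knockout libraries, against 140, 95.7 and 135 CPM in control libraries. Rpl10l and Rpl39l, known from male germ cells, had 2 and 7 counts in all 6 libraries. Rps23rg1, a retrogene of Rps23, had 19 counts, 8 of them in control replicate 2. None of the 4 was tested.

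Levels were compared between genes on the deposited FPKM scale, which divides counts by gene length and library total. The highest mean levels over all 6 libraries were 821 FPKM for Rplp1, 444 for Rps15, 349 for Rps27rt, 273 for Rpl4 and 257 for Rpl8. Among the 83 tested members the lowest were 0.40 FPKM for Rps13, 0.71 for Rpl9, 1.43 for Rps27, 2.12 for Rps29 and 2.16 for Rps12. The highest 5 hold at least 82.3% of their family's counts at their own locus. In 4 of the lowest 5 the locus held at most 3.31%, and the remaining gene, Rps27, shares its coding sequence with Rps27rt. Deposited lengths also differ from messages: the length implied by counts and FPKM was 499 bases for Rplp1, whose coding sequence has 342, and 10922 bases for Rpl9, whose coding sequence has 576.

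The starts of the genes were read from RefSeq promoters on GRCm38.p6, which gave a window for 67 of the 87 genes. A run of at least 5 pyrimidines, C or T in any order, from the annotated first base on was present in 26.9% of the 67, against 5.28% of 27025 genes. The letters CTTTCC, searched on the sense strand from 10 bases before to 30 bases after the start, were found in 17.9%, against 2.06%, and the shorter CTTTC, which CTTTCC contains, in 29.9%, against 5.69%. Starts are shown for 4 genes described above, because the pyrimidine run at the cap is the feature by which mTOR sets translation of these messages, with 10 bases before the start and the run in capitals:
Rps6: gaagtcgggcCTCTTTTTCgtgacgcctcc
Rpl28: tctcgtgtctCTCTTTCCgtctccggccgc
Rplp2: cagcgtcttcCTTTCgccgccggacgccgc
Rps18: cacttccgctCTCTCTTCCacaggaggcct
These windows lie at chr4:86857348-86857377 (minus strand), chr7:4792955-4792984 (plus), chr7:141447641-141447670 (plus) and chr17:33955646-33955675 (minus). The letters are a description of the annotated start and not of the start used in aorta. Over the whole 300-base window and both strands, CCGGAAG, a core bound by ETS factors such as GABP, was found in 38.8% of the 67, against 9.93% of all genes. AAGATGG, a core of YY1 sites, was found in 14.9%, against 7.28%. TATAAA, 20 to 40 bases before the start on the sense strand, was found in 1.49%, against 2.31%. The 4 genes shown were picked by hand and all hold the pyrimidine run, which 18 of the 67 have, so they do not stand for the list. Their log2 fold changes were -0.25 (Rps6) to 0.48 (Rplp2), and genes with and without the run were not compared.

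Fau and Rack1, which the name rule does not take, were read from the same fit. Fau, whose product is cut to release the small subunit protein eS30, had 191, 180 and 166 CPM in knockout libraries, against 143, 81.2 and 130 CPM in control libraries. Its groups do not overlap, and its log2 fold change of 0.59 ± 0.21 was not called (adjusted p = 0.150), and was 0.40 without control replicate 2 (adjusted p = 0.0730). Rack1, a signalling scaffold on the small subunit, had a log2 fold change of -0.01 ± 0.14, and -0.10 without that library. Among proteins of the mitochondrial ribosome, 77 of 78 genes were tested, 1 was called higher and 1 lower, beside 3.45% of all genes, and the median log2 fold change was 0.06. When control replicate 2 was left out, 2 were called higher and 3 lower, beside 5.51% of all genes called in either direction, and the median was 0.01.

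Other genes of translation and ribosome making were taken from 9 lists, with the calls of the same fit. The lists share some genes, and totals over the lists count each gene once. Among 37 initiation factors, 3 were called higher, beside 1.90% of all tested genes, and 0 lower, beside 1.56%. At an unadjusted p under 0.05 there were 9 of the 37, beside 22.7% of all genes. DESeq2 called 7 higher and 0 lower, beside 9.30% of all genes called in either direction. The median log2 fold change was 0.18, and 0.11 without control replicate 2. Eif3i, a subunit of eIF3, had 161, 145 and 153 CPM in knockout libraries, against 90.7, 59.3 and 90.2 CPM in control libraries, and rose by 0.92 ± 0.18 on the log2 scale (adjusted p = 0.0412). Eif2b2, a subunit of the exchange factor eIF2B, rose by 0.70 (adjusted p = 0.0378) and Eif1b, a relative of the start codon factor eIF1, by 0.61 (adjusted p = 0.0479). All 3 had every knockout library above every control library.

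Among 74 ribosome assembly factors, 3 were called higher, beside 1.90% of all genes, and 0 lower. Their median was 0.11, and 0.10 without control replicate 2. At an unadjusted p under 0.05 there were 12 of the 74, beside 22.7% of all genes. DESeq2 called 7 higher and 0 lower, beside 9.30% of all genes called in either direction. Emg1, which methylates 18S ribosomal RNA, had 72.6, 70.9 and 57.5 CPM in knockout libraries, against 41.3, 28.6 and 41.2 CPM in control libraries, and rose by 0.83 ± 0.17 (adjusted p = 0.0479). Ftsj3, a methyltransferase of precursor ribosomal RNA, and Bms1, a GTPase of small subunit assembly, rose by 0.54 (adjusted p = 0.0490) and 0.52 (adjusted p = 0.0485). Among 16 genes of ribosome quality control, Zfp598, a ubiquitin ligase that senses collided ribosomes, was the 1 gene called, beside 3.45% of all genes. The median of these 16 was -0.09, and 0.05 without control replicate 2. Of the 16, 5 had an unadjusted p under 0.05, beside 22.7% of all genes, and DESeq2 called 1, beside 9.30%. Zfp598 had 155, 145 and 133 CPM in knockout libraries, against 87.8, 91.2 and 88.0 CPM in control libraries, and rose by 0.70 ± 0.11 (adjusted p = 0.0295). The controls of Zfp598, control replicate 2 included, lie within a few CPM of one another.

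No gene was called in the other 6 lists, which held 13 elongation factors, 20 other TOP messages, 20 tested genes of growth signalling, 20 of RNA polymerase I and ribosomal RNA synthesis, 14 snoRNA hosts and 12 of the p53 response. At an unadjusted p under 0.05 these held 3, 5, 5, 4, 4 and 2 genes, beside 22.7% of all genes, and DESeq2 called 1, 2, 1, 0, 0 and 0, beside 9.30%. Their medians ran from -0.23 in snoRNA hosts, where 11 of 14 were negative, to 0.18 in RNA polymerase I genes. When control replicate 2 was left out, the medians in the same order of lists were -0.03, 0.01, 0.12, 0.10, -0.28 and -0.02. In that fit 1 of the other TOP messages was called higher, beside 5.51% of all genes called in either direction. All 7 calls in the lists held without control replicate 2 and were lost when any of the other 5 libraries was left out.

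Markers of the cells of an aorta give the setting of these values. Summed over 5 smooth muscle markers, libraries had 22746 to 27090 CPM in knockout and 27470 to 33528 CPM in control, and Tagln, whose product is SM22, was called lower. Over 4 neuron and Schwann cell markers the sums were 109 to 128 CPM in knockout and 51.9 to 69.9 CPM in control, and Uchl1 was called higher. Over 5 adipocyte markers they were 159 to 204 CPM in knockout and 224 to 285 CPM in control, and Ucp1 was called lower. These 5 were mixed, with 4 negative and 1 positive, and log2 fold changes from -2.45 to 1.55. The sums for endothelium, leukocytes, fibroblasts, erythroid cells, striated muscle and mesothelium overlapped between the groups, with no list at zero in every library. Among the markers of these lists that passed the filter on low counts, 0 were called. Those tested were 0 of 3 for mesothelium, 5 of 7 for leukocytes and 4 of 5 for striated muscle. The part of these differences in the values of the ribosomal protein genes was not tested.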

How the data were processed

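RNA-seq counts from whole mouse aorta were analysed in 6 libraries, grouped by genotype label and title. Per the submitters' processing notes, reads were handled with HISAT2, SAMtools 1.3.1, CASAVA 1.8 and edgeR. What counted the reads, on which annotation and strand, and what became of reads with several matches is not given in the sources used here. The notes name GRCm39, but 54821 of 55141 identifiers shared with GENCODE M21, and all 87 members, had GRCm38 positions, which are given here. The authors deposited whole-number counts and FPKM (counts divided by gene length and library total) per gene. FPKM served only to compare levels between genes.

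Counts were fitted in R 4.3.3 with edgeR 4.0.16 (filterByExpr by group, TMM, robust glmQLFit and glmQLFTest) over 16139 genes, with Benjamini-Hochberg adjustment over all of them and a threshold of 0.05. SE was taken as the absolute log2 fold change (knockout over control) over the square root of F. CPM use TMM-adjusted library sizes. DESeq2 1.42.0, limma-voom 3.58.1, other scalings and filters, a replicate block and leaving out each library were alternatives. Sums over a gene and its copies were added after seeing the data. The steps were tested on simulated counts. Copies were found by BLAST of the longest M21 coding sequence of each member. Overlapping genes are uncertain.

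Members and lists were chosen with earlier results of these data known. Genes named were those called, the 10 highest and 10 lowest fold changes, the 5 highest and 5 lowest FPKM, genes named in advance for their roles, and up to 4 called genes of each list. Rps23, Rpl17, Rpl37a and the copies were named after their values were seen. One ribosomal protein outside the name rule is not reported here. Totals ran from 3038782 to 18218385 counts, so values of control replicate 2 are the least precise.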

Additional observations from a re-analysis of the deposited data

How the results depend on the processing

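Depth limits control replicate 2 most. The count of genes called over the whole table (557) was 193 with library totals as the scale, 1501 with DESeq2, 28 with the replicate block, 903 with family sums without control replicate 2, and 7 to 911 when 1 library was left out. Members called (1) were 3 with DESeq2 (Rps19bp1, not a ribosomal protein, among them) and 0 with the replicate block. They were 0 with family sums, with or without control replicate 2, and 0 to 1 when 1 library was left out. Among the 7 tested members for which no near-identical copy was found and no copy carried their name, 0 were called. The median log2 fold change of these 7 was 0.39. Copies of a coding form shorter than the longest could have been missed in these 7. Calls in the translation lists (7) were 16 with DESeq2, 0 with the replicate block and 0 to 10 when 1 library was left out, with 10 without control replicate 2 and 0 without any other. The cause of these changes was not tested. Replicate numbers did not pair the libraries: deviations of same-numbered libraries correlated at 0.052, 0.086 and -0.060, and not every library correlated best with its own number.

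Of 848 values of 53 named genes under the alternatives, 734 kept their direction and side of the threshold, 65 lost the call, 2 gained it (Rpl13a and Rps19bp1 with DESeq2) and 47 changed sign. No gene whose sign changed was called. On the log2 scale, these were as follows. With library totals, Rpl3 was at -0.0053 and Rpl36a at -0.0074. Without a low-count filter, Rpl8 was at 0.0309, Rps13 at 0.0381, Rpl39 at 0.0009 and Rack1 at 0.037. With limma-voom, Rpl8 was at 0.0437, Rps13 at 0.0078 and Rack1 at 0.008. With the replicate block, Rpl8 was at 0.0275, Rps13 at 0.0222 and Rack1 at 0.0026. With family sums, Rpl9 was at 0.116, Rps12 at 0.296 and Rps13 at 0.227. With family sums without control replicate 2, Rps12 was at 0.0901, Rps27rt at -0.0173, Rplp1 at -0.0868, Rps13 at 0.0485, Rps29 at -0.0564, Rpl3 at -0.109, Rpl22l1 at -0.0304 and Rpl36a at -0.136. When 1 library was left out, log2 fold changes ran as follows: Rpl9 -0.399 to 0.0298, Rpsa -0.26 to 0.0014, Rpl8 -0.201 to 0.107, Rps27rt -0.0165 to 0.352, Rplp1 -0.0401 to 0.30, Rps13 -0.228 to 0.189, Rplp0 -0.232 to 0.0352, Rpl3 -0.116 to 0.119, Rpl22l1 -0.0314 to 0.251, Rpl39 -0.153 to 0.0443, Rpl36a -0.0202 to 0.113, Rps4x -0.208 to 0.0364, the non-member Rps4l -0.0659 to 0.18, Rpl5 -0.142 to 0.0043 and Rack1 -0.0958 to 0.11.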
